A study of Homo sapiens with 6 samples.

Results

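The genes described here are the transcriptional targets of p53 other than CDKN1A, together with p53's own feedback regulators. They are 39 named genes, of which 36 were measured among 19775 genes in all. A gene was measured where a probe set carried its symbol alone, and the brightest such probe set, by mean over all arrays, stood for it. BBC3, which encodes the BH3-only protein PUMA, shares its probe set's annotation with other genes and was left out by that rule, and BTG2 and FDXR were not analysed here. The data are 6 Affymetrix expression arrays of HCT116, a long-established cell line from a human colon tumour that keeps functional p53. In the control group cells were transfected with control oligos, and in the miR-224 group with miR-224 precursors, in both cases at 50 nM, with total RNA taken 24 h later. Each group has 3 arrays, and the series pairs them by 3 independent experiments, so every difference below was taken within an experiment as miR-224 minus control. All cells are of this single line, and the miRNA was supplied from outside as an oligo, so the groups model a short-term excess of miR-224 in these cells.

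p53 is a transcription factor that is held low by the ubiquitin ligase MDM2 and its partner MDM4 and is stabilised after DNA damage and other stress. It then binds response elements in its target genes, which halt the cell cycle, repair DNA, adjust metabolism or start apoptosis. Some of its targets, MDM2 and the phosphatase gene PPM1D among them, feed back to switch p53 off. A microRNA lowers messenger RNAs that pair with its seed, and array levels do not tell such pairing from a difference in p53 activity.

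The mature strands of the transfected miRNA are shown because their seeds (bases 2 to 8, in capitals) define which transcripts they can pair with. They are from RefSeq (GRCh38.p14) and lie on the minus strand of the X chromosome, at chrX:151958628-151958652 for the 5p and chrX:151958584-151958606 for the 3p strand. Matches of these seeds in the members' transcripts were not analysed here.
hsa-miR-224-5p: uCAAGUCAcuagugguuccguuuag
hsa-miR-224-3p: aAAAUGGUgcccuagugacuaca

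The p53 response element is a pair of decamers of the p53 consensus, and stretches with letters close to such a pair are shown for members. Binding of p53 to these stretches was not tested. RefSeq promoter windows of 300 bases (250 before to 50 after a start site, GRCh38.p14) were found for 30 of the 39 genes. They were searched along the gene's strand, and this palindromic consensus gives the same matches on the other strand. A match was a pair of 2 decamers at most 1 base apart that kept all 4 of their fixed C and G letters. The pair could differ from the consensus in at most 3 other letters. These limits were set after the windows had been looked at. Of the 30 genes, 8 held such a pair, and 7 of those 8 were measured. Of all 27305 genes with a window, 2.91% held one, and so did 2.38% of all windows. A match is a description of letters, and windows without one say nothing of elements elsewhere in a gene. Capitals mark the decamers in each stretch, which is written along the gene's own strand.
MDM2 (chr12:68808919-68808946, plus strand): agctGGTCAAGTTCAGACACGTTCcgaa
FAS (chr10:88991305-88991332, plus strand): tcctGGACAAGCCCTGACAAGCCAagcc
DDB2 (chr11:47214975-47215003, plus strand): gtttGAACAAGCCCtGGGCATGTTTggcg
AEN (chr15:88621302-88621329, plus strand): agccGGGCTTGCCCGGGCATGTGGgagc
SESN1 (chr6:109009014-109009041, minus strand): gtctGGACAAGTCTCCACAAGTCAgaaa
GDF15 (chr19:18386182-18386207, plus strand): gcacAGCCATGCCCGGGCAAGAACtc
RPS27L (chr15:63157523-63157550, minus strand): ggagGGCCTAGAGCAGACAAGCCCgccc
DDB2 matched the consensus in every letter, whereas MDM2, FAS and AEN were off in 2 letters and SESN1, GDF15 and RPS27L in 3. In the expression data these 7 genes differed little between miR-224 and control cells, by -0.21 (MDM2) to 0.29 (GDF15) on the log2 scale, median -0.04, and none passed the test (limma adjusted p from 0.352 to 0.976).

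The arrays carried most of the listed markers of a colon epithelial line and showed 1 technical split. Of 13 such markers, 9 lay at or above the median level of all genes (4.75). These were EPCAM, CDH1, KRT8, KRT18, KRT19, CDX1, CDX2, CLDN3 and CLDN4, while VIL1, CEACAM5, CEACAM6 and LGALS4 lay below it. Of 18 measured markers of blood cells, fibroblasts, endothelium and liver, 1 (COL1A1) lay above it. Both arrays of experiment 1 read low at the 5′ ends of the control transcripts, at 4.14 to 4.42 for actin against 12.3 to 12.5 in experiments 2 and 3, with 3′ values of 12.4 to 12.5 throughout. This split is balanced between the groups, but its part in the values of experiment 1 was not tested, so the main counts are also given without experiment 1.

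Most p53 targets, like most genes, differed little between miR-224 and control cells. Of the 36 measured members 25 had a lower and 11 a higher mean in the miR-224 cells, with a median log2 difference of -0.06, whereas over all genes 46.8% were lower and 53.2% higher and the median was 0.01. The size of the difference was under 0.2 for 26 members (72.2%), against 79.4% of all genes. No member passed the test, which is limma's moderated test with experiment as a block and an adjusted p under 0.05 over all 19775 genes (lowest adjusted p of a member 0.282), nor did any gene at all, so that 0% of all genes were called. At an unadjusted p under 0.05 stood 6 members with lower levels (16.7% of 36, against 5.52% of all genes) and 2 with higher levels (5.56%, against 5.45%). The lower ones were ACER2, TNFRSF10A, TP53INP1, ZMAT3, TP53I3 and PPM1D, and the higher ones were GDF15 and POLH. Without the block 1 member, ACER2, stayed under that p, against 1.58% of all genes. With the block the count was 10 of 36 without experiment 1 (against 11.9% of all genes in the same fit), 5 without experiment 2 (against 6.72%) and 3 without experiment 3 (against 9.17%).

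The lean towards lower levels came with experiment 3. In experiment 3, 28 of the 36 members were lower in the miR-224 cells (77.8%, against 47.0% of all genes), and their median was -0.13. In experiments 1 and 2 the members divided evenly, 18 lower and 18 higher in each, with medians of 0.00 and 0.01. Without experiment 3 the count turned to 16 lower and 20 higher with a median of 0.00, whereas without experiment 1 it was 24 and 12. In all 3 experiments alike 9 members were lower (25%, against 14.4% of all genes) and 5 were higher (13.9%, against 18.3%), so that 14 kept 1 sign, against 32.7% of all genes.

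**Figure D1:**
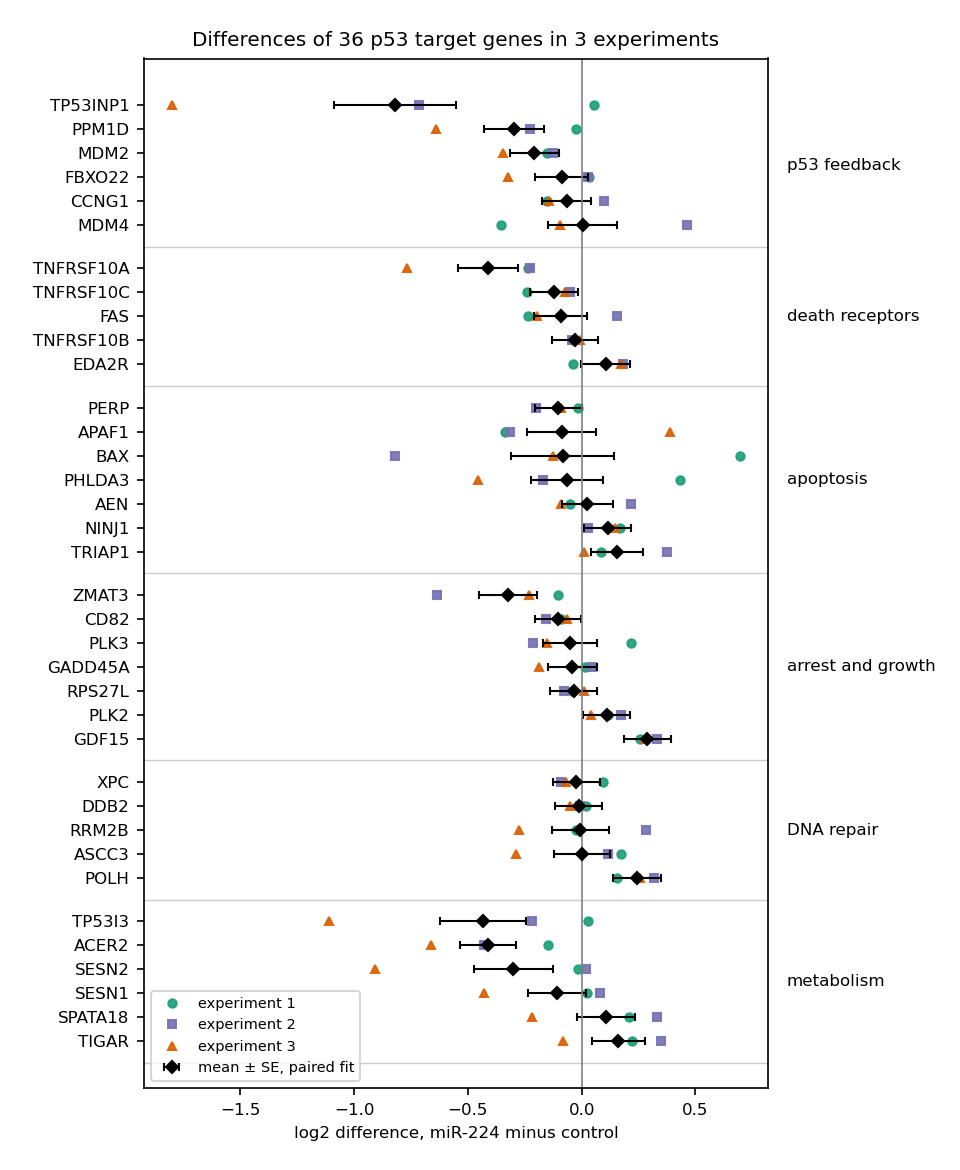
Log2 difference, miR-224 minus control, for the 36 measured p53 target genes by role, with a coloured point for each experiment and a black diamond with its standard error (moderated paired fit) for the mean. Most means lie within 0.2 of 0, and the points farthest to the left, for TP53INP1, TP53I3 and SESN2, are those of experiment 3.

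**Figure D2:**
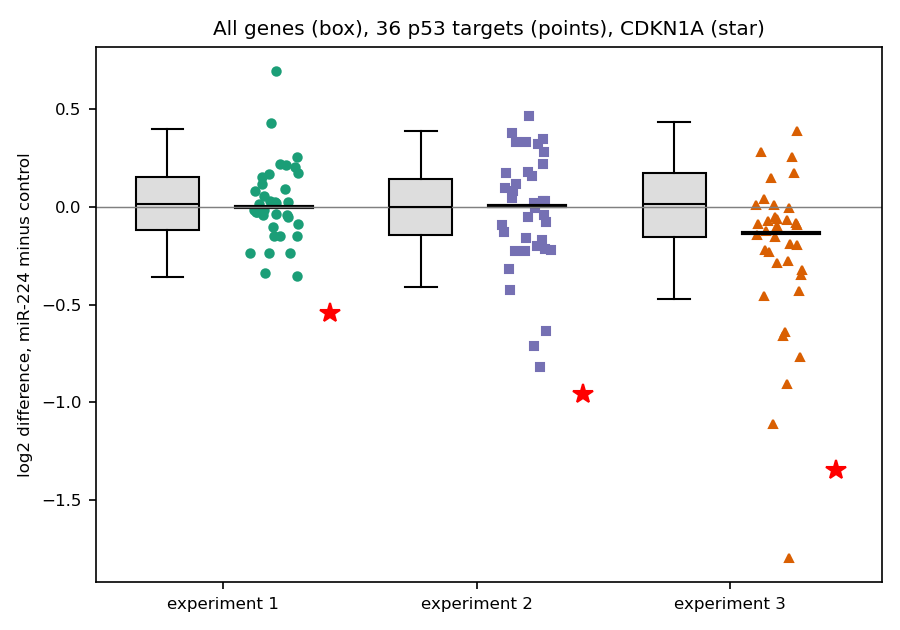
Log2 differences within each experiment: grey boxes show all 19775 genes (quartiles, whiskers at the 5th and 95th percentile), points the 36 p53 target genes with their median as a black bar, and red stars CDKN1A. The members' median is near 0 in experiments 1 and 2 and at -0.13 in experiment 3, while CDKN1A lies below 0 in each.

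Among the genes that feed back on p53, 5 of 6 had a lower mean, none of them past the test. TP53INP1, a stress protein that promotes p53 activity and autophagy, read 4.76, 6.30 and 8.04 in the control arrays of experiments 1, 2 and 3 and 4.81, 5.58 and 6.24 in the miR-224 arrays. The groups overlapped, and experiment 3 was highest in both. Within experiments it differed by 0.06, -0.71 and -1.80, on average by -0.82 ± 0.27 (SE of the paired fit, limma adjusted p = 0.325). With experiments 2 and 3 alone TP53INP1 fell by 1.26 ± 0.21 (adjusted p = 0.024, 1 residual degree of freedom). It was the single member to pass there, among 0.743% of all genes that were called lower and 0.137% called higher. It is also the member with the largest size of difference, and its other probe sets, both below the median level, stood at -0.09 and -0.14.

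PPM1D, which encodes the phosphatase WIP1 that inactivates p53 and its upstream kinases, read 7.88, 8.38 and 8.42 in control and 7.86, 8.16 and 7.79 in miR-224 arrays. It was lower in every experiment, barely in experiment 1, by -0.02, -0.23 and -0.64, and the groups overlapped. Its mean difference was -0.30 ± 0.13 (limma adjusted p = 0.455). MDM2, the ubiquitin ligase that degrades p53, read 8.11, 8.47 and 8.40 in control and 7.96, 8.35 and 8.06 in miR-224 arrays. Each miR-224 array was below the control of its own experiment, though the groups overlapped, and the mean difference was -0.21 ± 0.11 (adjusted p = 0.525). MDM4, the MDM2 relative that masks the activation domain of p53, had no common direction, at -0.36, 0.46 and -0.10 in experiments 1, 2 and 3. CCNG1 (cyclin G1, which recruits a phosphatase to MDM2) stood at -0.07 ± 0.11, and FBXO22, a ubiquitin ligase subunit that acts on methylated p53, at -0.09 ± 0.12, with -0.32 in experiment 3 and 0.03 in each of the other experiments.

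Among the death receptor genes, 4 of 5 had a lower mean, and TNFRSF10A had the largest difference of the group. TNFRSF10A, which encodes the TRAIL receptor DR4, read 6.17, 6.51 and 6.78 in control and 5.94, 6.28 and 6.01 in miR-224 arrays. It was lower in each experiment, by -0.24, -0.23 and -0.77, although control 1 lay below miR-224 array 2. Its mean difference was -0.41 ± 0.13 (limma adjusted p = 0.314). TNFRSF10B, the gene of the other death-inducing TRAIL receptor, DR5, read 8.30, 8.74 and 8.91 in control and 8.26, 8.70 and 8.90 in miR-224 arrays. Within experiments 1, 2 and 3 it differed by -0.04, -0.04 and -0.01, and the mean difference was -0.03 ± 0.10. FAS, the receptor of FAS ligand, read 6.50, 6.90 and 7.62 in control and 6.26, 7.05 and 7.43 in miR-224 arrays. It was lower in experiments 1 and 3 and higher in experiment 2, with a mean difference of -0.09 ± 0.12. The decoy receptor gene TNFRSF10C stood at -0.12 ± 0.11 and was lower in each experiment. EDA2R, the receptor of ectodysplasin A2, stood at 0.11 ± 0.11 on a probe set below the median level of all genes.

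Apoptosis genes showed no shared direction: 4 of 7 had a lower mean, and none had an unadjusted p under 0.05. BAX, which permeabilises the outer mitochondrial membrane, read 4.03, 6.66 and 6.73 in control and 4.72, 5.85 and 6.61 in miR-224 arrays. Both arrays of experiment 1 were far below the rest, and the difference changed sign between experiments, at 0.69, -0.82 and -0.12. The mean difference of BAX was -0.08 ± 0.23, which became 0.29 without experiment 2. Its other probe set was equally bright (5.77 on average for each) and stood at -0.34, and the average of both was -0.21. TRIAP1, a small mitochondrial protein that restrains apoptosis, read 9.09, 8.38 and 9.09 in control and 9.18, 8.75 and 9.10 in miR-224 arrays. It was higher in each experiment, mainly in experiment 2, with a mean difference of 0.16 ± 0.11 (limma adjusted p = 0.675). APAF1, the core of the apoptosome, stood at -0.09 ± 0.15 on a dim probe set. PERP, a desmosome-associated membrane protein, stood at -0.10 ± 0.10, and PHLDA3, which competes with AKT for membrane lipids, at -0.07 ± 0.16 with 0.43 in experiment 1 and -0.46 in experiment 3. The nuclease gene AEN stood at 0.02 ± 0.11, and NINJ1, whose product ruptures the plasma membrane of dying cells, at 0.12 ± 0.10 and above 0 in each experiment.

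Of the 7 genes of growth arrest and growth control 5 had a lower mean, and GDF15 and ZMAT3 differed most in size. GDF15, a secreted stress cytokine of the TGF-beta superfamily, read 7.08, 9.48 and 10.54 in control and 7.34, 9.81 and 10.82 in miR-224 arrays. Its level varied between experiments far more than with treatment, yet each miR-224 array lay above its own control by nearly the same amount, 0.26, 0.33 and 0.28. The mean difference was 0.29 ± 0.10 (limma adjusted p = 0.352), and its standard error without the block, which takes in the experiments, was 1.16. With its dim other probe sets averaged in, the difference of GDF15 was 0.05. ZMAT3, a zinc finger RNA-binding protein, read 6.21, 6.63 and 6.81 in control and 6.10, 5.997 and 6.58 in miR-224 arrays. It was lower in each experiment with the groups overlapping, by -0.10, -0.64 and -0.23, on average -0.32 ± 0.13 (adjusted p = 0.394). The others were close to 0. The stress sensor gene GADD45A stood at -0.04 ± 0.11, the polo-like kinase genes PLK2 and PLK3 at 0.11 ± 0.10 and -0.05 ± 0.12, RPS27L, a ribosomal protein paralog, at -0.04 ± 0.10, and the tetraspanin gene CD82 at -0.10 ± 0.10. PLK2 was higher and CD82 lower in each experiment, though another CD82 probe set above the median level of all genes stood at 0.07.

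Of 5 DNA repair genes 4 had means of -0.02 to 0.00, in which opposite signs between experiments could cancel. XPC and DDB2, which recognise ultraviolet lesions in nucleotide excision repair, differed by -0.02 ± 0.11 and -0.01 ± 0.10. DDB2 read 7.29, 7.75 and 7.79 in control and 7.31, 7.75 and 7.74 in miR-224 arrays, with differences of 0.02, -0.01 and -0.05. RRM2B, the p53-inducible subunit of ribonucleotide reductase, stood at -0.01 ± 0.13, from values of -0.02, 0.28 and -0.28. The helicase gene ASCC3 stood at 0.00 ± 0.12, from 0.17, 0.12 and -0.29. POLH, the translesion polymerase eta, read 4.93, 5.10 and 4.96 in control and 5.09, 5.42 and 5.22 in miR-224 arrays. Its miR-224 arrays were higher in each experiment, and only control 2 and miR-224 array 1 overlapped. POLH differed by 0.24 ± 0.10 (limma adjusted p = 0.444).

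Of 6 metabolic and antioxidant targets 4 had a lower mean, and none passed the test. ACER2, an alkaline ceramidase of the Golgi, read 3.44, 3.65 and 3.87 in control and 3.29, 3.23 and 3.21 in miR-224 arrays. It was the single member whose groups did not overlap, among 2.11% of all genes with every miR-224 array below every control. No member had every miR-224 array above every control (4.16% of all genes). The level of ACER2 was below the median of all genes. The mean difference was -0.41 ± 0.12 (limma adjusted p = 0.282, the lowest of the members). TP53I3, a quinone oxidoreductase linked to oxidative stress, read 5.29, 5.54 and 8.02 in control and 5.32, 5.32 and 6.91 in miR-224 arrays. Both arrays of experiment 3 were far above the other 4, and the difference lay mainly there, at 0.03, -0.22 and -1.11. On average TP53I3 stood at -0.43 ± 0.19 (adjusted p = 0.448). SESN2, a leucine sensor that restrains mTORC1, was singled out after its values were seen: it read 5.91, 6.86 and 7.85 in control and 5.90, 6.88 and 6.94 in miR-224 arrays. Within experiments 1, 2 and 3 SESN2 differed by -0.02, 0.02 and -0.91. Its relative SESN1 stood at -0.11 ± 0.13, with -0.43 in experiment 3. TIGAR, a phosphatase that lowers glycolytic flux, stood at 0.16 ± 0.12, and SPATA18, a mitochondrial quality-control protein read by a dim probe set, at 0.11 ± 0.13. In experiment 3 all 6 metabolic genes were lower in the miR-224 cells, as were all 6 feedback genes.

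**Figure D3:**
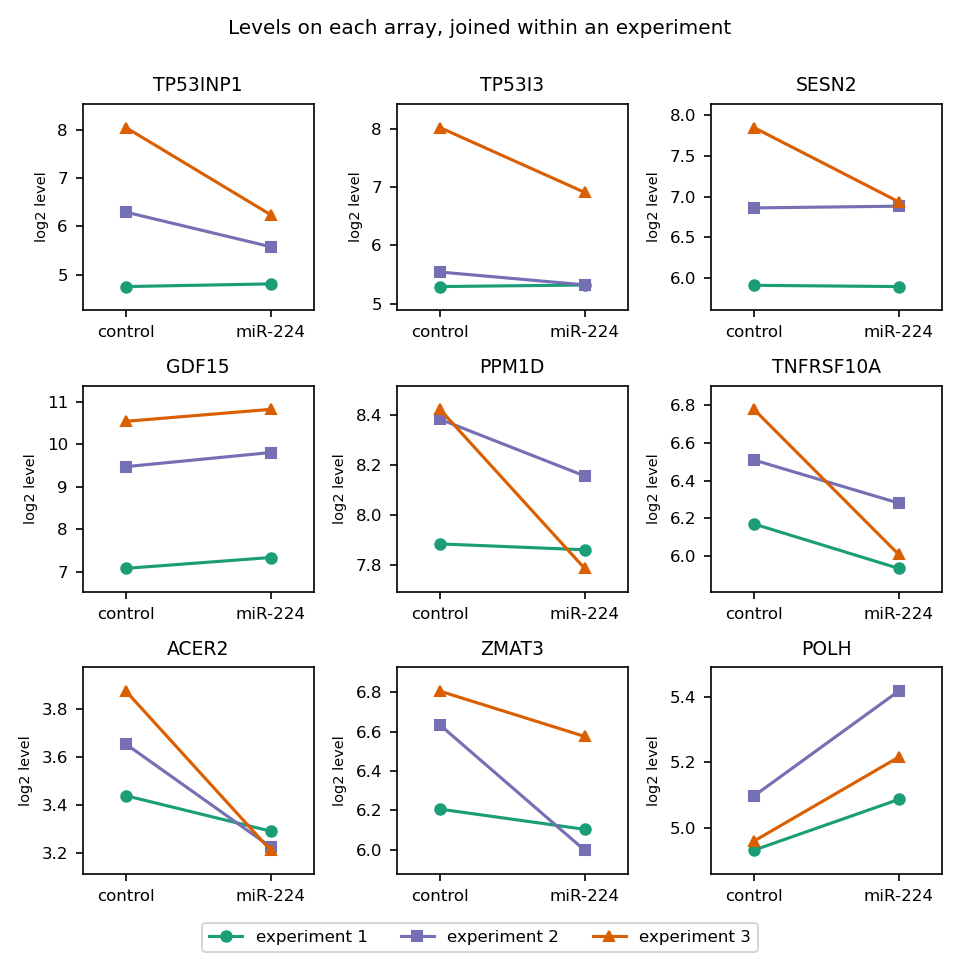
Log2 level on each array for 9 p53 target genes, with a line joining control and miR-224 of one experiment, and vertical scales that differ between panels. TP53INP1, TP53I3 and SESN2 were highest in control array 3 and lower in its miR-224 partner, GDF15 lines run parallel, and ACER2 is the gene whose groups do not overlap.

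The members also differed between experiments within each group, though not equally in the 2 groups. Control array 3 was above control array 2 for 30 of 36 members (83.3%, against 49.7% of all genes), and the median difference was 0.24 against 0.00. The miR-224 arrays showed the same order for 22 members (61.1%, against 52.2%), median 0.17 against 0.02. TP53I3 was higher in experiment 3 than in experiment 2 by 2.48 in control and 1.59 in miR-224 arrays, TP53INP1 by 1.75 and 0.66, and GDF15 by 1.07 and 1.02. SESN2 was higher by 0.99 in control arrays and by 0.05 in miR-224 arrays. These control values share array 3 with the differences of experiment 3, so the pair of measurements is not independent. Experiment 1 stood at the other end. Its control lay below the mean of the other controls for 28 members (77.8%, against 41.4% of all genes), and its miR-224 array likewise for 25 (69.4%, against 43.8%). The low 5′ signal of experiment 1 moves with these values, and its part in them was not tested. In cultures read as a whole, a lower level in each cell and fewer cells that express a gene cannot be told apart.

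**Figure D4:**
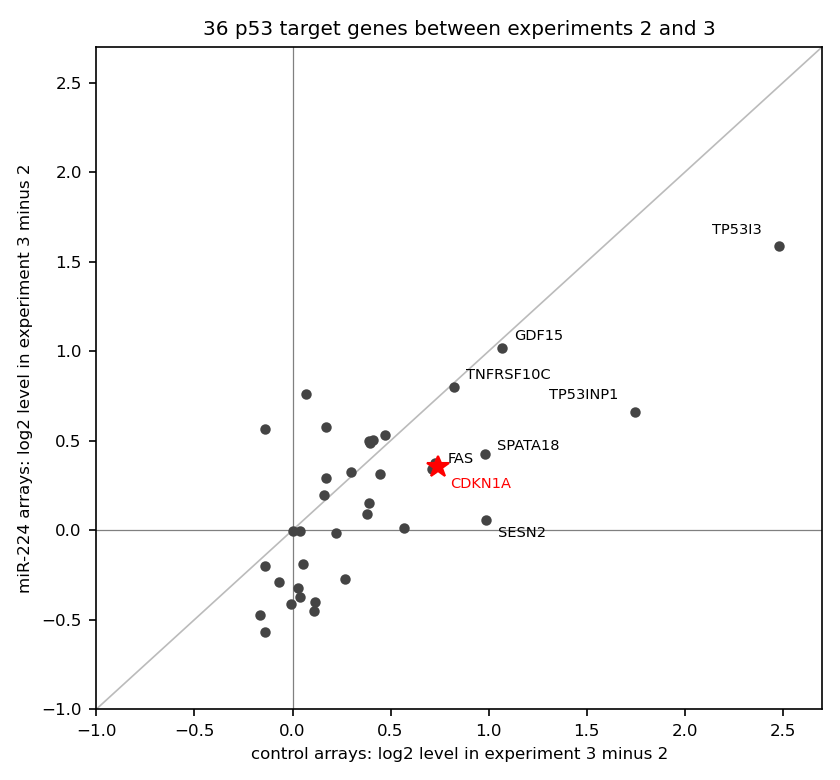
Log2 level in experiment 3 minus experiment 2 for the 36 p53 target genes, in the control arrays (horizontal) and the miR-224 arrays (vertical); the grey line marks equal values and the red star CDKN1A. TP53I3 (2.48 and 1.59), TP53INP1 (1.75 and 0.66) and SESN2 (0.99 and 0.05) lie below the line, and GDF15 (1.07 and 1.02) lies near it.

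CDKN1A, the p53 target that encodes the cell cycle inhibitor p21, had a larger mean difference, -0.95 ± 0.15, than any member: its miR-224 arrays, at 8.25, 9.25 and 9.60, were below controls of 8.79, 10.21 and 10.95 in each experiment. The groups of CDKN1A overlapped, and the main fit did not call it (limma adjusted p = 0.136). A paired limma fit that let the variance follow the level and used robust estimates called CDKN1A lower (adjusted p = 0.0062). That fit called none of the 36 members (lowest adjusted p = 0.197), and of all genes it called 0.207% lower and 0.0759% higher. Without experiment 1 the order turned, with CDKN1A at -1.16 and TP53INP1 at -1.26, both past the threshold there. The difference between CDKN1A and the members was not tested.

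Probe sets of a gene read different parts of its transcripts and did not always match. Of the 36 members 16 had another probe set at or above the median level, and in 5 of them at least 1 of these had the opposite sign. None of the 96 probe sets of members passed the test over all probe sets. For ZMAT3 the other bright probe sets stood at -0.12, -0.49 and -0.55, so all 4 were below 0, and the 2 of SESN2 both stood at -0.30. TNFRSF10A stood at -0.41 on its brightest probe set, and its other bright ones gave -0.09 and -0.12. The brightest probe set of TNFRSF10B stood at -0.03 and the other bright ones at 0.18 and 0.15, and the mean of its probe sets was 0.09. For ASCC3 the probe set used stood at 0.00 ± 0.12, while another bright one, which read 7.08, 5.44 and 5.44 in control and 6.78, 5.00 and 4.33 in miR-224 arrays, stood at -0.62 ± 0.16 (limma adjusted p = 0.299 over all probe sets). POLH had a probe set just below the median level at -0.60 ± 0.12 (adjusted p = 0.252), opposite in sign to the one used. With all probe sets of a gene averaged, dim ones included, POLH stood at 0.04, TNFRSF10A at -0.20, TP53INP1 at -0.35 and MDM2 at -0.11. Which transcripts these probe sets read was not analysed here.

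**Figure D5:**
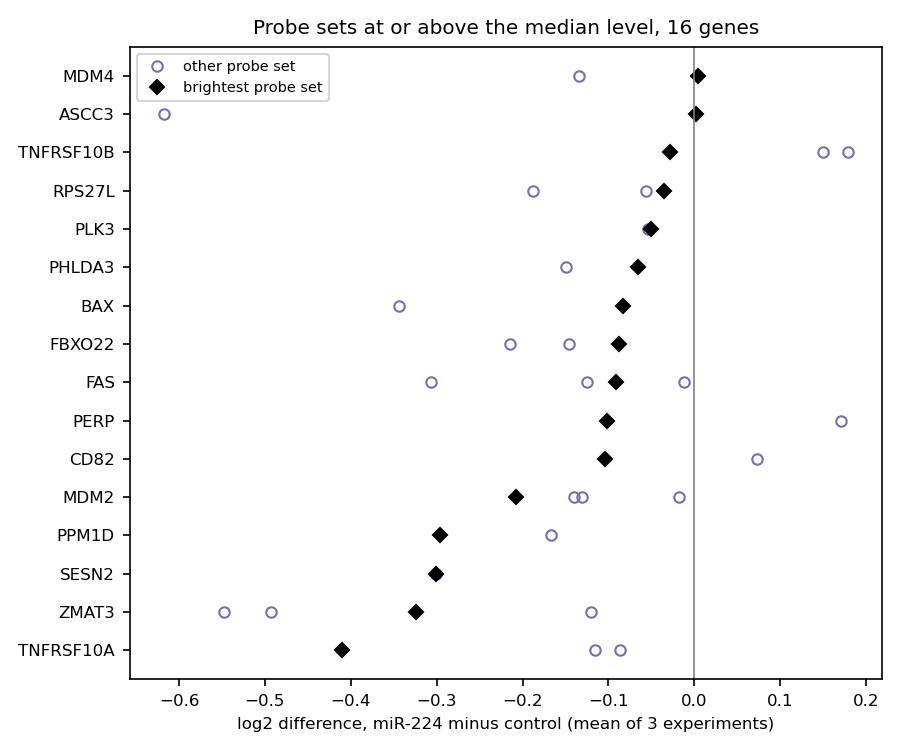
Mean log2 difference, miR-224 minus control, of every probe set at or above the median level for the 16 p53 target genes that have more than 1: black diamonds mark the brightest, which stands for the gene, and open circles the others. ZMAT3, MDM2 and FAS keep 1 sign throughout, and ASCC3 spans 0.00 to -0.62.

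The regulators of p53 divided between lower and higher means. Of 50 regulators and partners of p53, 45 were measured, with 21 lower, 24 higher and a median of 0.01. None passed the test (lowest limma adjusted p = 0.189), and 8 had an unadjusted p under 0.05, 2 of them lower (4.44%, against 5.52% of all genes) and 6 higher (13.3%, against 5.45%). MAPK8, the stress kinase JNK1, read 7.65, 7.26 and 6.73 in control and 7.01, 6.76 and 6.34 in miR-224 arrays. It was lower in each experiment, on average by -0.51 ± 0.11. ATR, the kinase of the replication stress checkpoint, was also lower in each experiment, at -0.20, -0.37 and -0.61. DYRK2, a kinase that phosphorylates p53, was higher in each, at 0.38, 0.72 and 0.23, and so was the phosphatase gene PPM1A, at 0.04, 0.95 and 0.41. These values are of the brightest probe sets, and other bright ones stood nearer 0, at -0.08 for ATR, 0.05 for DYRK2 and 0.10 for PPM1A, against -0.42 for MAPK8. With all probe sets of a gene averaged, MAPK8 stood at -0.29, ATR at -0.20, DYRK2 at 0.14 and PPM1A at 0.05.

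Of 80 further reported p53 targets 73 were measured, with 36 lower, 37 higher and a median of 0.00. This even split joins experiments that differed. In experiment 1, 28 were lower and 45 higher, whereas experiment 2 gave 44 and 29, and experiment 3 gave 48 and 25. Experiment 3 thus had 65.8% lower (median -0.11), between all genes (47.0%) and the members (77.8%). When experiment 1 was left out, 45 were lower and the median was -0.06. None of the 73 passed the test (lowest limma adjusted p = 0.143), and 7 had an unadjusted p under 0.05, 4 lower (5.48%) and 3 higher (4.11%), shares near those of all genes. STEAP3, a ferrireductase that also takes part in exosome release, had the smallest p. It read 6.97, 6.36 and 7.35 in control and 7.88, 7.36 and 7.72 in miR-224 arrays. Each miR-224 array was above every control, but only just, with 7.357 in miR-224 array 2 against 7.354 in control 3. TP53TG1 was the other of 2 genes of this list separated in this way, against 4.16% of all genes. The mean difference of STEAP3 was 0.76 ± 0.14. It was the single gene of this list called in the limma fit with a variance trend (adjusted p = 0.028), where 0.0759% of all genes were called higher. FUCA1, a lysosomal fucosidase, stood at 0.30 ± 0.11, while LPIN1, a phosphatidate phosphatase, stood at -0.33 ± 0.11 and ABHD4, a lipid hydrolase, at -0.38 ± 0.13. Each of these kept 1 sign in all 3 experiments. With all probe sets of a gene averaged, STEAP3 stood at 0.61, FUCA1 at 0.14, LPIN1 at -0.18 and ABHD4 at -0.23.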

How the data were processed

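The values are the authors' deposited log2 expression of 54675 probe sets, made with RMA and Partek per the submitters' processing notes, with versions and settings not given in the sources used here. The base of the logarithm is not stated and was taken as 2, as RMA commonly gives. RMA makes the arrays' distributions alike, so a shift shared by most genes is removed. Probe sets were named from the platform annotation given with the series: 41091 carried 1 symbol, 1801 several and 11721 none, and 62 control probe sets were left out. The members, gene lists and alternatives were chosen with earlier results of these data known.

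The groups were compared by the moderated test of limma 3.58.1 (R 4.3.3), two-sided, with p-values adjusted by Benjamini-Hochberg over 19775 genes, a threshold of 0.05 and experiment as a block because the series describes pairs from independent experiments. Across genes, each array's departure from its group mean correlated at 0.855, 0.585 and 0.771 between same-numbered arrays, and at -0.753 to 0.257 between others. The fit has 2 residual degrees of freedom per gene, so its standard errors borrow strength from all genes. The fit was tested on simulated data in which 200 genes were changed. The noise was drawn independently for each array, with the variance of each gene in the main fit. The fit called 59% of the changes of 1 log2 unit and 89% of those of 2, with 0 false calls, so it can miss changes of that size. With Benjamini-Hochberg these shares depend on how many genes change and by how much. They need not hold for the real data, where the main fit called 0 genes.

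Values in every array are given for members with 1 sign in all experiments and an unadjusted p under 0.05 (6 members), filled to 8 by smallest p among members with 1 sign in all experiments, for the largest difference of each role and for common p53 readouts. Of the other lists, the 4 genes of smallest p are named. Plots used Python 3.11.15 and matplotlib 3.10.9.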

Additional observations from a re-analysis of the deposited data

How the results depend on the processing

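Precision is set by the 3 arrays in each group. No member passed the test in the main fit or in 8 of 9 alternatives. Leaving out 1 experiment gave 0 to 1 members past the threshold, the 1 being TP53INP1 without experiment 1, and 0 to 174 genes in all. A variance trend with robust estimates called 56 genes and 0 members. The number of members with an unadjusted p under 0.05 was 8 in the main fit and 1 with no replicate block. It was 4 with probe sets averaged per gene, 5 when genes under the median level were dropped, and 3 to 10 without single experiments. Dropping genes under the median level also removed members, ACER2 among them, so that count is out of fewer members than the others. Shares of all genes at that p are given above for the main fit, with no block and without single experiments. They were not computed with probe sets averaged or dim genes dropped, so those counts cannot be set against all genes. Members with lower levels numbered 16 to 25 and those with higher levels 11 to 20 without single experiments, and the members' median ran from -0.07 to 0.00 there. The regulators' median, 0.01 in the main fit, was 0.031 with probe sets averaged per gene and 0.0076 to 0.029 without single experiments. With no replicate block 0 members and 0 genes passed, the same as in the main fit, so this count says little of the pairing. The counts at an unadjusted p under 0.05, given above, did differ. Of 22 named genes under the 9 alternatives, 2 values reversed: BAX ran from -0.471 to 0.285 without single experiments, above 0 without experiment 2, and TNFRSF10B stood at 0.0865 with its probe sets averaged. Quantile normalization again and median centring moved the median of all genes from 0.012 to 0.0062 and -0.0024, and turned no named gene.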
